A study of Rattus norvegicus with 24 samples.

Results

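Moxd2 encodes a member of the copper-dependent monooxygenases, enzymes that use ascorbate and oxygen to hydroxylate their substrates. The best known relatives are Dbh, which makes noradrenaline from dopamine, and Pam, which takes part in the amidation of peptide hormones. In mouse, Moxd2 transcripts are known from the olfactory epithelium, and the human copy is a pseudogene. The gene was chosen from measured values. Among the 10 largest differences past the threshold between exposed and control nose at 7 days, Moxd2 was the 1 gene that is not an odorant receptor. The ranking covered named genes, of which the array holds 14506, and left out probe sets of low nasal mean. The gene has 1 probe set (10862140, gene 500092), and its values repeated those of 0 other probe sets.

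The arrays carried RNA of male Fischer rats, about 8 weeks old at the start, exposed by the nose alone, 6 hours daily, to 2 ppm formaldehyde for 7 or 28 days. Control rats sat in like tubes with room air for as long. Formaldehyde is an irritant gas, here vaporised from an isotope-labelled paraformaldehyde. RNA came from tissue of the maxilloturbinate, a bony scroll of the nasal cavity, and from circulating white blood cells. The 24 arrays formed 8 groups of 3, exposed and control at 7 and at 28 days in nose and likewise in white blood cells. Whether each replicate is its own animal is not stated, so p-values measure the spread between these arrays, which may be technical, and the number of arrays limits the precision. Values are log2 of the authors' normalized intensity unless stated otherwise.

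The nasal arrays carried markers of olfactory mucosa as well as of respiratory epithelium. Olfactory mucosa holds sensory neurons, each of which uses 1 or few odorant receptor genes, beside sustentacular cells and Bowman's glands. Receptor genes and some enzymes are used in belts or patches of this sheet, so that neighbouring pieces of mucosa can differ in them. In the maxilloturbinate samples the mean of 12 measured markers of mature olfactory neurons (of 13 listed) ran from 11.39 to 11.76 on the exposed arrays and 8.93 to 10.32 on the control arrays of 7 days, and from 9.85 to 10.27 on the exposed and 7.42 to 9.81 on the control arrays of 28 days. In white blood cells the same mean was 6.30 to 6.94. RNA of the whole tissue was measured, so more cells of a type and more RNA per cell cannot be told apart.

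RefSeq places Moxd2 on the minus strand of chromosome 4 in the GRCr8 build. The sequence from 250 bases before to 50 after its annotated start (chr4:70699819-70700118, minus strand) is shown for the gene itself, and the like window of Sult6b1 (chr6:21914285-21914584, plus strand) because that gene had the nasal pattern nearest to Moxd2. Capitals mark the letters TATAA or their reverse complement TTATA.
Moxd2: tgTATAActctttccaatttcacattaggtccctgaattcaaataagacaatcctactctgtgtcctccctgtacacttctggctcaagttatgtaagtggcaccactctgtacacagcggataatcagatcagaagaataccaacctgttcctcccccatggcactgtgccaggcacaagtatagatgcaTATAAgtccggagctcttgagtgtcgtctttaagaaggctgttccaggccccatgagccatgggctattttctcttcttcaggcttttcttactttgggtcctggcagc
Sult6b1: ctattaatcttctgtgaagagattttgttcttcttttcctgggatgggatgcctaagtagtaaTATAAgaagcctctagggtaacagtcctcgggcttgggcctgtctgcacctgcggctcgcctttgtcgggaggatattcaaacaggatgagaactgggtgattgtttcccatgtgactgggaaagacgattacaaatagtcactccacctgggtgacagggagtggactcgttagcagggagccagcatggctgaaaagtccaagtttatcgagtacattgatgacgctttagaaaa

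TATAA, the core of the TATA box, was present in 26.2% of 33469 RefSeq windows of 300 bases on either strand. The Moxd2 window held it 2 times, with 1 match starting 59 bases before the annotated start. CCCNNGGG, the core bound by early B cell factors, was present in 12.4% of all windows, and TAATTA, a homeodomain core, in 5.36%. Neither was found in the windows of Moxd2 or Sult6b1, which says only that these letters are not there. In both windows the annotated start is an ATG, as in 9.0% of all windows, so the gene models may lack a leading exon and the bases shown may not be the promoter.

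After 7 days Moxd2 was high in exposed nose. The normalized intensities were 2798, 473.2 and 1921 on the 3 exposed arrays, against 55.6, 73.0 and 78.2 on the 3 control arrays. On the log2 scale these are 11.45, 8.89 and 10.91 in exposed nose and 5.80, 6.19 and 6.29 in control nose. The groups did not overlap, and exposed replicate 2 lay well under the other exposed arrays. The means were 10.41 ± 1.35 in exposed and 6.09 ± 0.26 in control nose (SD, n = 3 each), a difference of 4.32 ± 1.02 (SE from limma). Since this contrast chose the gene, no test is given. The position of the probe set among all 29214 on its array moved likewise, to percentiles 95.6, 61.3 and 92.0 in exposed nose, against 11.2, 15.2 and 16.6 in control nose.

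With no filter Moxd2 stood in place 5 of the differences past the threshold at 7 days. With probe sets of low nasal mean (under percentile 25) left out, it stood in place 3. Or4e5 (4.90), Or4k15 (4.85), Or4a15 (4.18), Or7a38c (4.15), Or4k49 (3.81), Or4k45 (3.66), Or4a66 (3.64), Or4p8 (3.57) and Or5h25 (3.53) filled the other places up to the 10th. Just outside were Or2ag19 at 3.43 and Or8k40 at 3.42, both receptors too. The standard error of Moxd2 in that ranking, 1.03, was larger than those of the other 11 genes, which ran from 0.29 to 0.96. Its place depended on single arrays, because the difference no longer passed the threshold without exposed replicate 1 or 3 or control replicate 1 or 3, with values of 3.80, 4.08, 4.17 and 4.42. Without exposed replicate 2 it stood in place 1, and without control replicate 2 in place 3.

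**Figure D1:**
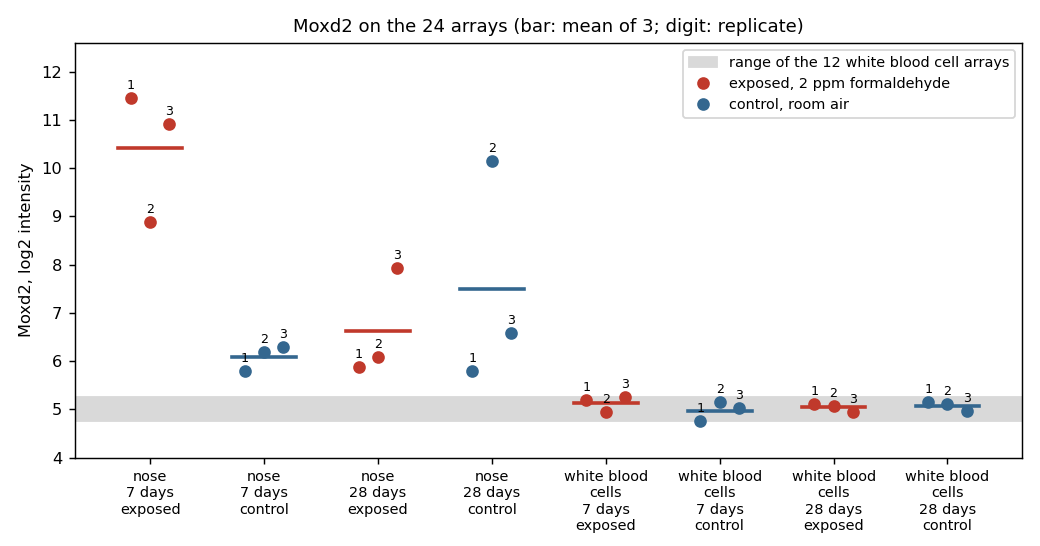
Log2 intensity of Moxd2 on each of the 24 arrays, with groups on the horizontal axis, points for arrays, digits for replicates and bars for means of 3. The 3 exposed nasal arrays of 7 days (8.89 to 11.45) and control replicate 2 of 28 days (10.14) stand highest, and the grey band is the range of the 12 white blood cell arrays (4.75 to 5.25).

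After 28 days the nasal arrays no longer divided by exposure. Moxd2 was at 5.87, 6.09 and 7.93 on the exposed arrays, against 5.78, 10.14 and 6.58 on the control arrays. The highest value belonged to a control, replicate 2, and lay above exposed replicate 2 of 7 days, while the ranges of the 2 groups overlapped throughout. The means were 6.63 ± 1.13 in exposed and 7.5 ± 2.32 in control nose (SD, n = 3 each). The difference was −0.87 ± 1.02 with a 95% interval of −3.12 to 1.38, and it did not pass the limma test over all probe sets (adjusted p = 0.774). Of those probe sets 0.00342% passed in this comparison. An exact permutation test of the single value gave p = 0.7, where 3 arrays against 3 cannot go below 0.1. Without control replicate 2 the difference turned to 0.45 (adjusted p = 0.803).

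Control replicate 2 of 28 days was studied further after its value was seen. Moxd2 on that array was 2.21 above the highest of the other 5 nasal arrays of 28 days, the largest such gap among 29214 probe sets, of which 2 had a gap over 1. Vom1r56, a vomeronasal receptor, had a gap of 1.0, Or13c3 of 0.96, Mrgprg of 0.86, the telomerase RNA Terc of 0.82 and Sult6b1 of 0.67. Markers of olfactory neurons did not set the array apart to that extent. Omp, the olfactory marker protein of mature neurons, stood at 11.42, 11.85 and 11.44 on the exposed arrays of 28 days and at 8.15, 11.47 and 10.89 on the controls. Control replicate 1, low in Omp, was also the lowest in Moxd2, and the other 5 arrays had Omp within 10.89 to 11.85 while Moxd2 ran from 5.87 to 10.14.

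**Figure D2:**
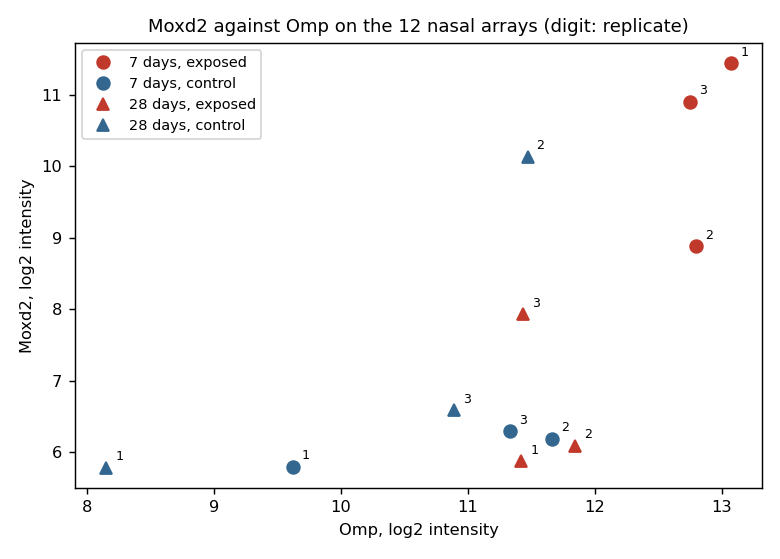
Log2 intensity of Moxd2 (vertical) against that of Omp (horizontal) on the 12 nasal arrays, with circles for 7 days, triangles for 28 days, red for exposed, blue for control and digits for replicates. Arrays with Omp between 10.89 and 11.85 carried Moxd2 anywhere from 5.87 to 10.14, and the 3 exposed arrays of 7 days had both Omp (12.75 to 13.07) and Moxd2 high.

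White blood cells gave the lowest levels of this probe set. The 12 arrays ran from 4.75 to 5.25 with a mean of 5.05 ± 0.14 (SD, n = 12), or 26.9 to 38.0 as intensity. At 7 days Moxd2 was at 5.19, 4.95 and 5.25 in exposed cells, against 4.75, 5.14 and 5.02 in control cells, and at 28 days at 5.11, 5.06 and 4.95 in exposed cells, against 5.16, 5.12 and 4.96 in control cells. The groups overlapped on both days. The difference was 0.16 ± 0.11 at 7 days (limma adjusted p = 0.624, 95% interval −0.09 to 0.41) and −0.04 ± 0.11 at 28 days (adjusted p = 0.950, interval −0.29 to 0.21). Of all probe sets 0.188% passed at 7 days and 3.18% at 28 days in these cells.

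Set against this floor, every nasal array lay higher on the log2 scale, by 3.64 to 6.2 over the highest blood array of the day in exposed nose at 7 days and by 0.55 to 1.04 in control nose at 7 days. At 28 days the gap was 0.71 to 2.77 in exposed and 0.63 to 4.98 in control nose. Part of such gaps may lie in the scales, because array medians differed, though the source of that difference was not tested. The median of all probe sets was 8.25 to 8.28 on nasal and 7.45 to 7.5 on blood arrays of 7 days. On arrays of 28 days it was 7.35 to 7.42 in nose and 6.82 to 6.90 in blood. With each array centred on its median, 5 of 6 nasal arrays of 7 days and 6 of 6 of 28 days remained above all blood arrays of their day. The exception was control replicate 1 of 7 days, at −2.46 from its array median against −2.71 to −2.24 in blood. The centred difference between control nose and control blood of 7 days was 0.31, against 1.12 without centring, so a level over the floor is not shown for that group.

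At 28 days the nose was higher than blood by 2.01 on average over both exposures, with 6 of 6 nasal arrays above the blood arrays, and by 1.48 with centring on the array median. After centring, nasal control replicate 1 (−1.57) and exposed replicate 1 (−1.53) lay close to the highest blood array of that day (−1.72). A clear level over the floor is therefore not shown for each nasal array. The nasal arrays of 28 days entered the filter on nasal means and the spread behind the threshold in the ranking that chose Moxd2, so the differences in level between nose and blood are a description, with no test. In the limma fit the difference was 1.59 ± 0.76 between exposed nose and exposed blood (95% interval −0.0007 to 3.18) and 2.43 ± 0.76 between control nose and control blood (0.83 to 4.02). Of all probe sets 70.9% and 71.8% passed the threshold in these comparisons. Without control nose replicate 2 the control difference was 1.11. This fit uses 1 spread for both tissues, although Moxd2 varied by an SD of 1.13 to 2.32 in nose and 0.08 to 0.11 in blood at 28 days. The exposure difference in nose minus that in blood at 28 days was −0.84 ± 1.08 (adjusted p = 0.769, 95% interval −3.09 to 1.42, with 2.68% of probe sets past the threshold).

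The 8 group means ran in the order exposed nose 7 days (10.41), control nose 28 days (7.5), exposed nose 28 days (6.63), control nose 7 days (6.09), exposed blood 7 days (5.13), control blood 28 days (5.08), exposed blood 28 days (5.04) and control blood 7 days (4.97). Of the neighbours in this order, only control nose 7 days and exposed blood 7 days had arrays that did not overlap. Levels of different days carry the limit that the array medians differed between days. Among nasal arrays 5 of 12 lay above 7.5, of which 4 were exposed and 1 was a control, and the other 7 lay under 7. The exposed arrays of 7 days, which chose Moxd2, are among those 4, so this count is a description. On the arrays of 28 days, exposed replicate 3 (7.93) and control replicate 2 (10.14) lay above 7.5.

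The genes with the nasal pattern nearest to Moxd2 were sought over 15309 named probe sets, by the root mean square of the difference in log2 value over the 12 nasal arrays after each gene's own mean was subtracted. The arrays that chose Moxd2 are among the 12, so this is a description. Sult6b1, a cytosolic sulfotransferase, was nearest at 0.76, followed by the odorant receptors Or13c3 (1.03), Or2ag19 (1.16), Or5an1b (1.18) and Or13c3c (1.19), while the median over all probe sets was 1.99. Or13c3 and Or13c3c are receptors of 1 subfamily on chromosome 5, whose probe sets may share sequence. The nearest that were not receptors were Sult6b1, Ncam2 (1.30), an adhesion molecule of olfactory axons in the ventral part of the mucosa, and Prss33 (1.31), a serine protease.

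Sult6b1 stood at 9.57, 7.81 and 8.95 on the exposed arrays of 7 days, against 5.37, 5.34 and 6.11 on the control arrays. At 28 days it was at 5.39, 5.48 and 6.53 on the exposed arrays, against 5.01, 7.20 and 5.81 on the control arrays, and white blood cells had 3.82 to 4.65. The 6 arrays of 28 days fell in the same order for Sult6b1 as for Moxd2. On both genes exposed replicate 2 was the lowest of the exposed arrays at 7 days. Among the largest rises the same held for Or7a38c, Or4k49, Or4k45, Or4a66, Or4p8, Or5h25 and Or8k40, but not for Or4e5, Or4k15, Or4a15 or Or2ag19. Or13c3 was at 6.99, 4.35 and 6.41 on the exposed arrays of 7 days, against 3.26, 3.15 and 3.53 on the controls. At 28 days it was at 4.07, 3.91 and 4.80 on the exposed arrays, against 3.86, 5.76 and 4.41 on the controls, with blood at 2.99 to 3.83. Its low intensities lie near those in blood, so sizes at this level are uncertain.

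The likeness to Sult6b1 and Or13c3 was also seen over the 6 nasal arrays of 28 days alone. These genes again ranked first (0.85) and second (0.90) there, with a median of 1.56 over the named probe sets. Moxd2 on that day was at 10.14 on control replicate 2, against 5.78 to 7.93 on the other arrays. The ranks of 28 days may thus rest largely on that array, and ranks without it were not computed. Over deviations of the 12 arrays from their group means, which include the arrays of 7 days, Sult6b1 and Or13c3 also ranked first and second (0.60 and 0.63). Or13c3c ranked 4th on both of these measures. The other 2 of the 5 nearest fell back, Or2ag19 to 23rd over the arrays of 28 days and 130th over the deviations, and Or5an1b to 11th and 17th. Ncam2 ranked 23rd over the 12 arrays, 100th over those of 28 days and 29th over the deviations, and Prss33 25th, 1012th and 27th. Odorant receptors made up 90 of the 100 nearest probe sets over the 12 arrays, 22 of 100 over the arrays of 28 days and 14 of 100 over the deviations, where 7.37% of all named probe sets are receptors.

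**Figure D3:**
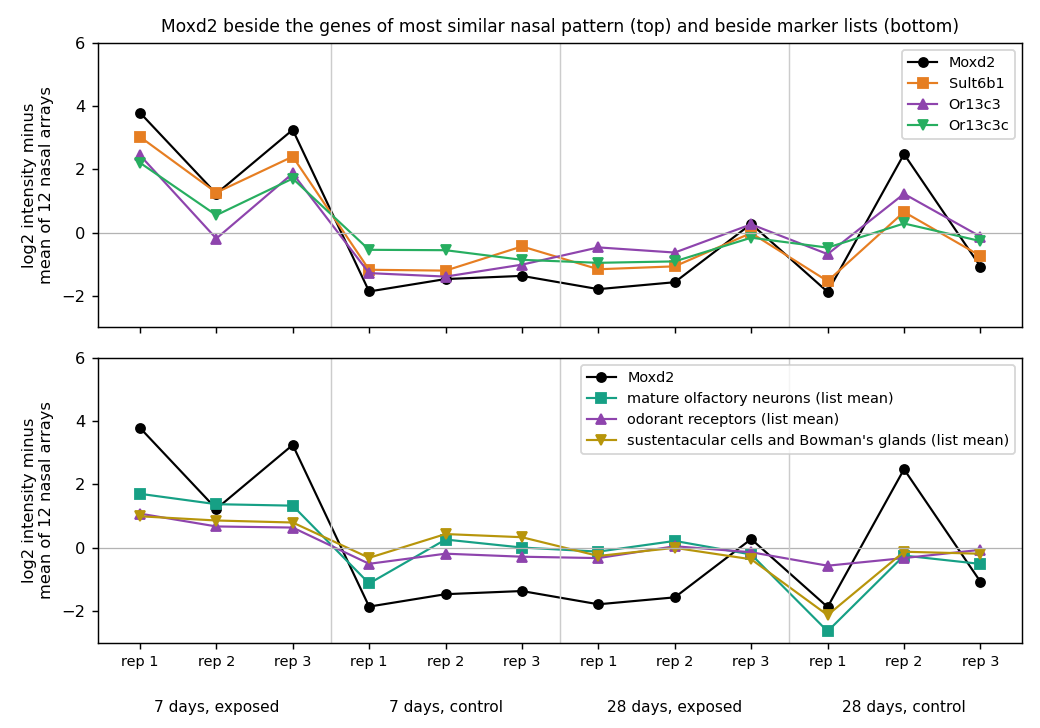
Log2 intensity minus the mean of the 12 nasal arrays, by array, for Moxd2 with Sult6b1, Or13c3 and Or13c3c (top) and with the means of 3 marker lists (bottom). Sult6b1 and Or13c3 share the dip of Moxd2 at exposed replicate 2 of 7 days and its peak at control replicate 2 of 28 days, while the 3 list means lie just under 0 on that control array.

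Moxd2 was set beside the marker lists array by array. On the 3 exposed arrays of 7 days Omp was at 13.07, 12.80 and 12.75, against 9.62, 11.66 and 11.33 on the controls. Over those exposed arrays Omp spanned 12.75 to 13.07, while Moxd2 spanned 8.89 to 11.45. The mean of the 1128 odorant receptor probe sets was 7.56, 7.16 and 7.12 on the exposed arrays of 7 days, against 5.98, 6.30 and 6.2 on the controls. At 28 days it was 6.16, 6.53 and 6.34 on the exposed arrays, against 5.92, 6.16 and 6.42 on the controls, so that control replicate 2, the highest in Moxd2, was in the middle of its group. Exposed replicate 2 of 28 days had the highest receptor mean of that day and a low Moxd2 (6.09).

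Other lists differed in level between the 7 day groups. The mean of 5 measured markers of sustentacular cells and Bowman's glands (of 6) was 12.72 to 12.92 in exposed and 11.60 to 12.36 in control nose. For 6 measured markers of progenitors and immature neurons (of 7) it was 9.17 to 9.56 in exposed and 7.90 to 8.67 in control nose. For 6 markers of ciliated cells (of 8) it was 9.76 to 9.96 in exposed and 9.40 to 9.66 in control nose. It was lower in exposed nose for 3 basal cell markers of 4, at 9.69 to 10.62 against 10.80 to 10.89 in control nose, for 5 leukocyte markers of 7, at 7.69 to 7.81 against 8.12 to 8.35, and for 4 endothelial markers, at 8.35 to 8.72 against 9.15 to 9.51. Of these markers, 1 progenitor and 3 ciliated markers rose, 3 leukocyte and 3 endothelial markers fell and 0 of the sustentacular and basal ones passed, where 7.22% of all probe sets rose and 5.62% fell. In the same contrast, which chose Moxd2, 5 of 12 mature neuron markers rose. Of 1128 odorant receptor probe sets 605 rose and 1 fell. At 28 days 0 markers of any list passed in nose. The part of these shifts in the difference of Moxd2 was not tested.

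Among the zone markers, genes used in only a dorsal or a ventral belt of the olfactory mucosa, the 4 listed did not follow one course at 7 days. Ncam2, a ventral marker, was at 10.17, 9.18 and 9.48 in exposed nose, against 7.31, 7.16 and 7.44 in control nose. Nqo1, a quinone reductase of the dorsal zone and of other cells, was at 11.10, 11.75 and 11.84 in exposed nose, against 12.22, 12.30 and 12.54 in control nose. Acsm4, a dorsal enzyme of fatty acid activation, was at 11.74, 11.67 and 11.28 in exposed nose, against 9.26, 11.39 and 11.12 in control nose. Nrp2, a receptor that guides ventral axons, had a mean of 10.90 in exposed and 10.70 in control nose. In the contrast that chose Moxd2, Ncam2 rose and Nqo1 fell past the threshold, while Acsm4 and Nrp2 did not pass. Of all probe sets 12.8% passed there. At 28 days 0 of the 4 passed in nose, and Ncam2 was at 7.67, 7.75 and 7.71 in exposed nose, against 6.56, 7.76 and 7.41 in control nose, so control replicate 2 did not stand out in it as it did in Moxd2.

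The family of the enzyme did not pass the test in nose. At 7 days Dbh differed between exposed and control nose by −0.03 ± 0.11 and Pam by −0.34 ± 0.12. Moxd1, a relative whose substrate is not well known, differed by 0.01 ± 0.09 on that day. At 28 days the differences were −0.09 for Dbh, −0.09 for Moxd1 and 0.04 for Pam. On both days 0 of these 3 genes passed the test in nose. Of all probe sets 12.8% passed there at 7 days and 0.00342% at 28 days, so a count of 0 of 3 does not set the family apart. Dbh levels were 7.57 in exposed and 7.61 in control nose at 7 days, Moxd1 levels 8.53 and 8.52, and Pam levels 11.40 and 11.74. In white blood cells at 28 days Pam rose by 1.15 (limma adjusted p = 0.00552), where 2.56% of all probe sets rose, and its exposure difference in nose minus that in blood was −1.11 (adjusted p = 0.00486), where 1.87% of probe sets had a lower and 0.808% a higher difference in nose.

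Genes around the pathway were counted from lists. Of 10 measured genes of catecholamine synthesis and handling (12 listed), Ddc (0.63), which makes dopamine from its precursor, and the pterin cofactor enzymes Gch1 (0.36) and Qdpr (0.72) rose in nose at 7 days, and 7 did not pass, where 7.22% of all probe sets rose. At 28 days 0 of the 10 passed in nose. In blood 0 passed at 7 days and 1 at 28 days, the vesicular monoamine transporter Slc18a2, which rose by 1.01, where 2.56% of all probe sets rose. Of 12 genes of copper and ascorbate supply, the copper pump Atp7b (0.69), the copper chaperone Atox1 (0.31) and the metallothionein Mt1 (0.69) rose in nose at 7 days and 9 did not pass, against the same 7.22% of all probe sets. At 28 days 0 of the 12 passed in nose, with the largest statistics for Mt1 (0.98 ± 0.20) and the copper chaperone Ccs (0.38 ± 0.11), and 0 passed in blood on either day. The ascorbate transporter Slc23a2 had a higher exposure difference in nose than in blood at 28 days, by 0.74 (limma adjusted p = 0.0467), as did 0.808% of all probe sets. Neither part passed alone, at 0.43 in nose (limma adjusted p = 0.338) and −0.30 in blood (limma adjusted p = 0.0611). For Slc18a2 the difference in nose was lower than in blood, by −1.03 (limma adjusted p = 0.00685), as for 1.87% of all probe sets. The medians of the catecholamine and copper lists were 0.00 and 0.11 at 7 days in nose, against −0.05 over all probe sets, and 0.00 and 0.23 at 28 days, against −0.004. The 7 day values of these 6 genes come from the contrast that chose Moxd2 and are a description.

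The genes beside Moxd2 on chromosome 4 were measured as well. RefSeq lists the bitter taste receptors Tas2r108 and Tas2r138, the proteases Prss37, Prss58, Prss59, Prss3bl1, 1810009J06Rikl and Prss3b, the lectin receptor Clec5a and the odorant receptor Or9a4 as the 10 nearest measured genes, 5 on each side. Apart from Or9a4, their differences at 7 days lay between −0.23 and 0.10 and none passed the threshold, where 12.8% of all probe sets did. Or9a4 was at 8.42, 6.75 and 8.17 in exposed nose, against 5.83, 5.51 and 5.93 in control nose, a difference of 2.02 ± 0.44 past the threshold. As with Moxd2 and several of the most raised receptors, exposed replicate 2 was the lowest of the exposed arrays. At 28 days Or9a4 was at 5.32, 5.21 and 6.22 in exposed nose, against 5.0, 6.06 and 6.00 in control nose, and 0 of the 10 genes passed. Tas2r138, the nearest measured gene on its side, stayed within 5.89 to 6.39 on the 12 nasal arrays, and Prss58, the nearest on the other side, within 4.68 to 5.14, while Moxd2 spanned 5.78 to 11.45.

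**Figure D4:**
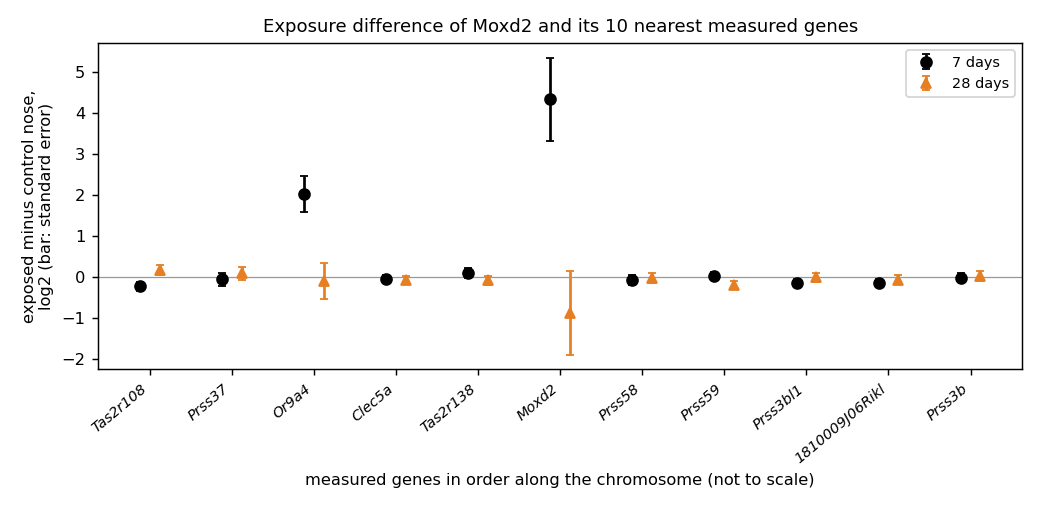
Difference in log2 intensity between exposed and control nose (vertical, bars are standard errors from limma, 3 arrays a group) for Moxd2 and its 10 nearest measured genes in chromosome order (horizontal, not to scale), with circles for 7 days and triangles for 28 days. At 7 days Moxd2 (4.32) and Or9a4 (2.02) stand apart from the other genes, and at 28 days Moxd2 (−0.87) has the widest error.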

How the data were processed

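The authors deposited 1 normalized intensity per probe set and array, positive and on a linear scale (3.39 to 19999.83), for 29214 probe sets and 24 Affymetrix arrays. Per the submitters' processing notes Partek was used. How background was removed, probes summarized and arrays scaled is not given in the sources used. Probe sets were named through the platform's gene table, with symbols updated by gene ID (15310 carried 1 symbol, 323 several and 13581 none). Members and lists were chosen with earlier results of these data known.

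Log2 values were fitted without filter by limma 3.58.1 in R 4.3.3 (lmFit and eBayes, group means, 12 arrays of a tissue or all 24 between tissues). Tests were two-sided with Benjamini-Hochberg adjustment over all probe sets and a threshold of 0.05. The ranking that chose Moxd2 used the 21910 probe sets with a nasal mean at or above percentile 25 (6.61). Genes were named by rule: the 12 largest 7 day nasal differences past the threshold, the monooxygenase family, listed catecholamine and copper genes past the threshold or the 2 with the largest statistic, the 5 genes and 3 non-receptors nearest in nasal pattern, and 5 measured genes on each side. A listed gene was represented by its probe set of highest mean. The fits were tested on simulated data with equal spread in all groups. In nose Moxd2 had group SDs of 0.26 to 2.32, a case that the simulated data did not cover. Figures were drawn with matplotlib 3.10.9.

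Same-numbered exposed and control arrays of nose at 28 days had residual correlations of 0.133, 0.134 and 0.190 over probe sets, each above 0.1. For the other same-numbered exposed and control arrays they ran from −0.301 to 0.0893. Same-numbered nasal and blood arrays gave −0.181 to 0.114. Arrays of unlike number were not compared and no label states a pairing, so a pairing is not shown. Alternatives varied the filter, scaling, prior, array weights, blocking by replicate, arrays fitted and single arrays left out.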

Additional observations from a re-analysis of the deposited data

How the results depend on the processing

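The 7 day nasal difference of Moxd2, 4.32, was 3.80 to 5.09 when any 1 array was left out, 4.04 after quantile normalization and 3.81 with array weights. No exposure difference of Moxd2 at 28 days or in blood passed the threshold under any alternative that gave a value. Leaving out 1 array moved it from −1.73 to 0.45 in nose at 28 days, from 0.05 to 0.25 in blood at 7 days, from −0.10 to 0.01 in blood at 28 days and, as nose minus blood at 28 days, from −1.69 to 0.48. The sign turned without control nose replicate 2 (0.45, and 0.48 against blood) and, in blood at 28 days, without exposed replicate 3 (0.0099) or control replicate 1 (0.0036). With array weights, whose estimation stopped early in some fits, the nose minus blood value was −3.20 and that between control nose and control blood 4.75. The replicate block, a paired fit, changed no call of Moxd2, with −0.87 in nose at 28 days (adjusted p = 0.743). Between tissues at 28 days, a description, leaving out 1 array gave 0.94 to 1.97 for exposed and 1.11 to 3.29 for control arrays, the lowest values being without exposed nose replicate 3 and control nose replicate 2. With only the arrays compared the differences of 1.59 and 2.43 kept their values, with standard errors of 0.46 and 0.96 in place of 0.76. The 7 day difference between control nose and control blood was 0.31 after median centring. By Pearson's r 3 of the 5 nearest genes were shared. Filters dropped Moxd2 from all blood fits and, at the median, from nose, and gave no value there.

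Over all probe sets, 1 passed in nose at 28 days, and 0 with the median filter, array weights, the replicate block or only the arrays compared (0 to 716 with 1 array left out, 716 being without control replicate 1, and 3689 at an unadjusted p under 0.05). In blood at 7 days 55 passed, and 104 with the percentile 25 filter, 179 with the median filter, 149 after quantile normalization, 20 after median centring, 818 with array weights, 2 with the block and 4 with only the arrays compared (1 to 35 with 1 left out). In blood at 28 days 930 passed, and 462 with array weights, 283 with the block and 1 with only the arrays compared (456 to 1070). Between tissues at 28 days 20707 passed for exposed and 20989 for control arrays, and 10815 and 10773 with the median filter, which tests fewer probe sets. For the difference of exposure effects 783 passed, and 1215 with the median filter, 1583 with array weights, 337 with the block and 32 with only the arrays compared (421 to 2166). Where not stated, the cause was not tested.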
